A study of Homo sapiens with 4 samples.

Results

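GCKR and 7 genes of sugar metabolism in liver, KHK, FBP1, PCK1, PCK2, PKLR, SLC37A4 and G6PC3, were followed through 4 RNA-seq libraries of A549 cells, a human lung adenocarcinoma line. The 8 genes were taken by symbol from a table of 23143 genes, and they were chosen because GCKR was higher with doxycycline, so the values of that contrast are a description and carry no test. The DOX group (2 libraries) is labelled as overexpressing GATA4, an endoderm and heart transcription factor, and the noDOX group (2 libraries) as having GATA4 at its normal level; the design text speaks of induction by doxycycline against vehicle. The dose, the duration and the promoter behind the induction are not stated in the labels, and no cells with doxycycline but without inducible GATA4 were analysed here. Values are FPKM, that is, fragments divided by the length of the transcript and by the size of the library, a scale on which levels of different genes can be compared per length.

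In hepatocytes GCKR encodes a regulatory protein that restrains the phosphorylation of glucose when sugar is scarce. Fructose phosphorylated by ketohexokinase (KHK) lifts this restraint. Phosphoenolpyruvate carboxykinase (PCK1 in the cytosol, PCK2 in mitochondria) and fructose bisphosphatase (FBP1) drive new glucose synthesis, and the SLC37A4 transporter with a glucose phosphatase of the endoplasmic reticulum (G6PC in liver, G6PC3 in most tissues) frees the glucose. PKLR encodes the pyruvate kinase of liver and red blood cells and works in the opposite direction, at the end of glycolysis.

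GATA4 was at 75.0 and 48.0 FPKM in the DOX libraries, against 12.2 and 14.5 FPKM in the noDOX libraries. The 5 epithelial markers KRT8, KRT18, KRT19, EPCAM and CDH1 were all above 0 in every library and summed to 4819 and 8263 FPKM with doxycycline and to 5868 and 4106 FPKM without. Most of these sums was KRT8 and KRT18. EPCAM was lower in both DOX libraries, at 3.83 and 3.08 FPKM against 8.27 and 13.7 FPKM, and KRT8, KRT18, KRT19 and CDH1 overlapped between groups. The 6 hepatocyte markers summed to 3.75 and 1.67 FPKM in the DOX libraries and to 5.001 and 4.49 FPKM in the noDOX libraries. Albumin (ALB) was at most 0.0786 FPKM in any library, and APOA1 and TF also stayed under 1 FPKM. CPS1 was at 0.861 and 0.699 FPKM with doxycycline and at 2.39 and 1.97 FPKM without. SERPINA1 was at 0.384 and 0.243 FPKM with doxycycline and at 1.10 and 2.04 FPKM without. TTR was at 2.35 and 0.453 FPKM with doxycycline and at 0.657 and 0.254 FPKM without. SERPINA1, TF and CPS1 were lower in both DOX libraries, and ALB, APOA1 and TTR overlapped between groups. The 4 endothelial markers were under 1 FPKM in all libraries. Blood markers summed to 2.29 to 16.1 FPKM, most of it CD14, with CD3E listed at 0 throughout, and fibroblast markers to 1.79 to 8.50 FPKM, with DCN listed at 0 throughout. In bulk RNA fewer cells of a kind and less RNA per cell cannot be told apart. The commonest ratio of low values between libraries gave what 1 fragment is worth in each, and its inverse is taken as the relative depth. With noDOX library 1 set to 1, it was 1.10 and 0.726 in DOX libraries 1 and 2 and 1.15 in noDOX library 2. It equals depth only if values were not scaled across libraries, which is not stated. With these worths, 81.0% of 2605 genes with low FPKM had values that were whole multiples of 1 fragment within 0.02. The number of fragments in a whole library is unknown.

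GCKR was at 44.0 and 34.5 FPKM in the DOX libraries, against 3.70 and 2.76 FPKM in the noDOX libraries. Averages were 39.2 ± 6.7 FPKM with doxycycline and 3.23 ± 0.66 FPKM without (SD, n = 2 each), a ratio of 12.1, and the groups were far apart. On the log2(FPKM + 1) scale, where the pseudocount of 1 understates the change of low genes, the difference was 3.25. The GCKR level lay above 84.2% and 78.2% of the 12504 genes tested (mean of at least 1 FPKM) in the DOX libraries, and above 25.4% and 15.3% of them in the noDOX libraries. By this difference GCKR had rank 29 from the highest among all 12504 tested genes, and rank 8 among the 12112 left once small RNA genes were set aside.

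Of the 8 genes, 6 have a promoter in the RefSeq table used (build GRCh38.p14). That of GCKR and the outer of the 2 of PKLR are shown because both hold a GATA word close to the annotated start. That of FNDC4, the neighbour of GCKR, is shown with them. Each line gives the 250 bases upstream of the start, 5′ to 3′ on the strand of the gene. Capitals mark matches on either strand to AGATAA or the related word AGATAG, and to TGATAA or the related word TGATAG, which GATA factors bind.
GCKR, chr2:27496589-27496838, plus strand: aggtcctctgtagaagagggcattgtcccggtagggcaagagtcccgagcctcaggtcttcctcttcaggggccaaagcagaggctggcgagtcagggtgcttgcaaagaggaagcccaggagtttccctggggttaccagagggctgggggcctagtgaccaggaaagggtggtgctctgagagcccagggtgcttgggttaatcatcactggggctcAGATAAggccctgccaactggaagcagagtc
PKLR, chr1:155301439-155301688, minus strand: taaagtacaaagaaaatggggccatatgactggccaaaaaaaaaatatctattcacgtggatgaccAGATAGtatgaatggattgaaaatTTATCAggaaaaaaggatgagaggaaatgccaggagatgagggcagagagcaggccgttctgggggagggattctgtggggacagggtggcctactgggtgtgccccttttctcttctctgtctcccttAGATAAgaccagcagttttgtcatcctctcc
FNDC4, chr2:27495201-27495450, minus strand: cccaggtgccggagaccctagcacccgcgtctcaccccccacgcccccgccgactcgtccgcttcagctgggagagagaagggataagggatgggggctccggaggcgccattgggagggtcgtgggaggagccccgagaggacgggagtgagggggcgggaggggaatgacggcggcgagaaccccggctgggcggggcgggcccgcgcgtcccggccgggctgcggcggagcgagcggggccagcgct

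The GCKR window held AGATAA from 31 to 26 bases upstream of the start, as its 1 match. Of all 35116 promoter windows of this length 22.3% held a GATA word. The outer PKLR window, upstream of the other annotated start of the gene, held AGATAA at the same 31 to 26 bases upstream and TGATAA and AGATAG farther out. The inner PKLR window, which is not shown, and the FNDC4 window held none of these words. Over the 6 genes, 3 of 10 windows held a GATA word, in GCKR, PKLR and SLC37A4, and the 3 windows of G6PC3, which held none, overlap. The words TGTTTAC of FOXA factors and CAAAGTCCA of HNF4 were in none of the 10 windows, against 2.98% and 0.325% of all windows. A match in a window is a description of letters, and binding was not measured here.

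The fructose branch of the pathway was present in part. KHK was at 9.97 and 13.3 FPKM in the DOX libraries, against 11.03 and 9.998 FPKM in the noDOX libraries, with means of 11.7 ± 2.4 FPKM with doxycycline and 10.5 ± 0.7 FPKM without (SD, n = 2 each). The groups overlapped, and the log2 difference of 0.12 was smaller than the spread between replicates (pooled SD 0.20). KHK shares exon bases with CGREF1 on the other strand, at 12.2 to 15.5 FPKM, and no label says whether strand was used in counting. DAK, the triokinase gene that acts downstream of KHK, was at 12.9 and 13.0 FPKM with doxycycline and at 14.8 and 17.9 FPKM without. The fructose transporter gene SLC2A5 was listed at 0 in DOX library 1 and noDOX library 2 and stayed under 0.1 FPKM in the others.

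Of the glucose synthesis genes, the mitochondrial carboxykinase was expressed and the cytosolic one was nearly absent. PCK2 was at 34.1 and 64.8 FPKM in the DOX libraries, against 67.6 and 26.9 FPKM in the noDOX libraries. PCK2 averaged 49.4 ± 21.7 FPKM with doxycycline and 47.2 ± 28.8 FPKM without (SD, n = 2 each), so that replicates of either group differed from each other far more than the groups did. DOX library 2 and noDOX library 1 were high and the other pair low, and the log2 difference of 0.14 became -0.51 without noDOX library 2 and 0.78 without noDOX library 1. This split was not particular to PCK2. FPKM summed over all genes were 1238483 in DOX library 2 and 1381822 in noDOX library 1, against 975728 in DOX library 1 and 989493 in noDOX library 2. PCK1 was at 0.0483 and 0.0147 FPKM in the DOX libraries and at 0.0319 and 0.129 FPKM in the noDOX libraries. Its values stood as 5 and 1 fragments with doxycycline to 3 and 14 without, the smallest whole numbers in that ratio. The PCK2 level was 705 and 4414 times that of PCK1 in the DOX libraries and 2115 and 208 times in the noDOX libraries, ratios that rest on very few PCK1 fragments.

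FBP1 was listed at 0 in both DOX libraries and in noDOX library 1, and it was at 0.0178 FPKM in noDOX library 2. A 0 in such a table may stand for a failed estimate or for no transcript. FBP2, the muscle form of the same enzyme, was at 0.632 and 0.397 FPKM with doxycycline and at 0.336 and 0.688 FPKM without. PC, pyruvate carboxylase, which makes the substrate of the carboxykinases, was at 3.29 and 2.99 FPKM in the DOX libraries and at 2.96 and 4.45 FPKM in the noDOX libraries, with overlapping groups.

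Of the glucose phosphatase genes, RNA of the broadly expressed form was found and that of the liver form was nearly absent. G6PC3 was at 90.7 and 99.7 FPKM in the DOX libraries, against 87.4 and 75.8 FPKM in the noDOX libraries. G6PC3 averaged 95.2 ± 6.4 FPKM with doxycycline and 81.6 ± 8.2 FPKM without (SD, n = 2 each), and each DOX value exceeded each noDOX value, with a log2 difference of 0.22 (pooled SD 0.12). G6PC was at 0.0166 and 0.0126 FPKM with doxycycline and at 0.0183 and 0.0476 FPKM without, which stood as 2 and 1 to 2 and 6 fragments, and G6PC2, the islet form, was listed at 0 in all 4 libraries. SLC37A4, which carries glucose phosphate into the endoplasmic reticulum, was at 12.5 and 10.1 FPKM in the DOX libraries, against 12.5 and 12.8 FPKM in the noDOX libraries. Both DOX values lay below both noDOX values, the nearer by 0.0432 FPKM, with a log2 difference of -0.16 (pooled SD 0.14). It shares exon bases with TRAPPC4 on the other strand, at 23.5 to 41.8 FPKM.

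PKLR was at 1.15 and 0.710 FPKM in the DOX libraries, against 0.590 and 0.788 FPKM in the noDOX libraries, and the groups overlapped. The log2 difference of 0.18 was no larger than the spread between replicates (pooled SD 0.19). PKM2, the symbol under which the table lists the pyruvate kinase of most tissues, was at 831 and 1282 FPKM with doxycycline and at 1482 and 1117 FPKM without, which was 723 and 1807 times the PKLR level in the DOX libraries and 2512 and 1417 times in the noDOX libraries. PKLR shares exon bases with HCN3 on the other strand, at 2.74 to 3.96 FPKM.

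**Figure D1:**
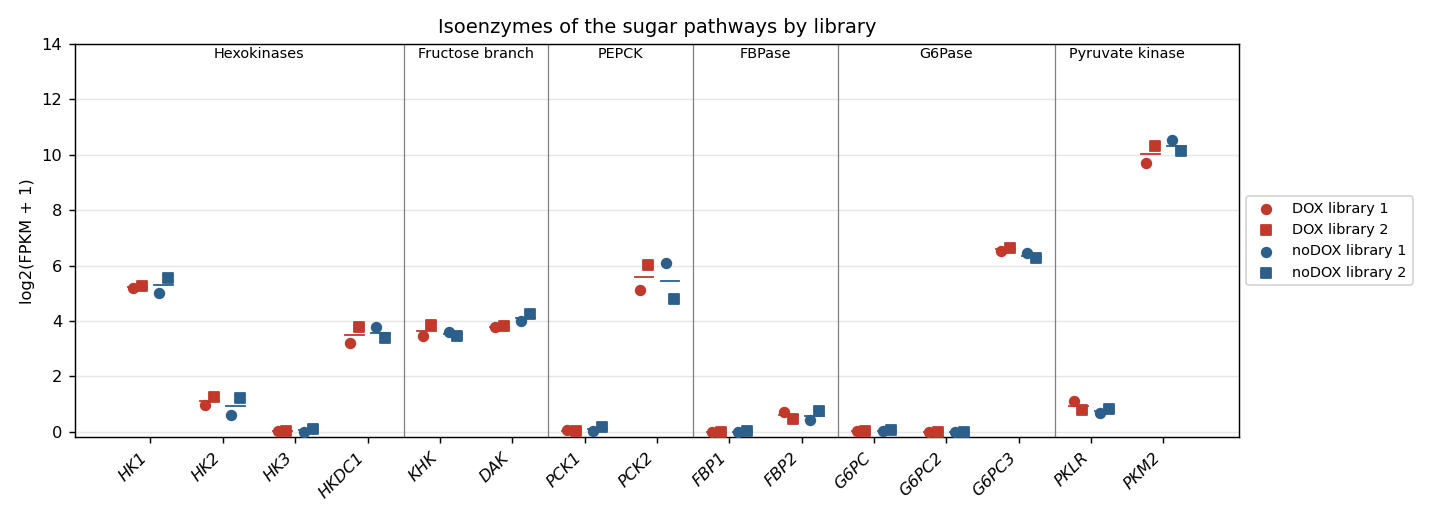
Levels of isoenzymes as log2(FPKM + 1) in each library, grouped by enzyme, with DOX in red left of noDOX in blue, circles for library 1, squares for library 2 and bars for group means. HK3, PCK1, FBP1, G6PC and G6PC2 lie near 0 in all 4 libraries, while HK1, DAK, PCK2, G6PC3 and PKM2 are expressed in all of them.

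Of the hexokinases, which start the use of glucose, HK1 was the most abundant among those described here. HK1 was at 35.5 and 37.7 FPKM in the DOX libraries, against 31.6 and 45.8 FPKM in the noDOX libraries. HKDC1, a further hexokinase domain gene, was at 8.34 and 12.8 FPKM with doxycycline and at 12.7 and 9.44 FPKM without, and HK2 at 0.967 and 1.36 FPKM with doxycycline and at 0.537 and 1.34 FPKM without. All 3 overlapped between groups. The liver glucose transporter gene SLC2A2 was at 0 and 0.0113 FPKM in the DOX libraries and at 0.00817 and 0.0142 FPKM in the noDOX libraries.

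Ordered by level in the DOX libraries, G6PC3 came first, PCK2 and GCKR next with ranges that overlapped, then KHK and SLC37A4, also overlapping, and PKLR, PCK1 and FBP1 last. In the noDOX libraries GCKR stood below KHK and SLC37A4, at 0.336 and 0.276 times the KHK level, against 4.41 and 2.59 times that level in the DOX libraries. A mean of at least 1 FPKM was reached by 5 of the 8 genes. In 2 of these, GCKR and G6PC3, both DOX libraries lay above both noDOX libraries, as in 14.7% of all tested genes, and in 1, SLC37A4, both lay below, as in 17.3%. Of the 5, 0 passed an adjusted p of 0.05 in a fit over all tested genes (limma), which called 0.024% of genes higher and 0.064% lower. Since the genes were chosen on this contrast, nothing is read from these counts. The median log2 difference of the 5 was 0.14, beside -0.04 over all tested genes.

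The other genes of sugar handling were taken from 6 lists of 129 genes, of which 103 were tested. None passed the threshold in either direction (0 higher, 0 lower; limma, Benjamini-Hochberg over all tested genes), and 7 (6.80%) had an unadjusted p under 0.05, as did 6.34% of all tested genes. Higher means were seen in 49 and lower ones in 54, with a median log2 difference of -0.01, and the groups did not overlap in 15 (14.6%) with higher and 19 (18.4%) with lower DOX values. These shares are close to the 14.7% and 17.3% of all tested genes. The listed genes counted include CREB3L3, which reached the mean of 1 FPKM only through the DOX libraries.

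In the list of fructose, polyol and mannose genes (15 tested, median -0.07), SORD, the sorbitol dehydrogenase that makes fructose from sorbitol, stood out. It was at 148 and 50.4 FPKM in the DOX libraries, against 20.6 and 16.1 FPKM in the noDOX libraries. Its mean was 5.42 times as high, with a log2 difference of 2.19 (SE 0.57; limma, adjusted p = 0.578), and DOX library 1 was far above DOX library 2. Without DOX library 1 the log2 difference was 1.42 (adjusted p = 0.892) and without DOX library 2 it was 2.96 (adjusted p = 0.0941). A near-identical pseudogene copy of SORD can share its reads. PFKFB3, which makes the activator of phosphofructokinase, was at 44.8 and 66.6 FPKM with doxycycline and at 103 and 129 FPKM without, a log2 difference of -1.06 (SE 0.32; limma, adjusted p = 0.672). GFPT1, which diverts fructose phosphate to hexosamines, was at 12.8 and 10.3 FPKM with doxycycline and at 7.19 and 8.90 FPKM without (limma, adjusted p = 0.882).

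Of the 15 tested genes of the glycolysis trunk, 13 had lower means with doxycycline, and the median log2 difference was -0.43, beside -0.04 over all tested genes. In 7 of the 15 (46.7%) the DOX values were all under the noDOX values, beside 17.3% of all tested genes, and 0 passed the threshold (limma; 1 had an unadjusted p under 0.05). In some of the 7 the groups nearly touched. The highest DOX and lowest noDOX values were 42.8 and 43.3 FPKM for PFKL and 717 and 731 FPKM for LDHA. TPI1 followed the library split seen for PCK2, at 409 and 800 FPKM with doxycycline and at 1173 and 535 FPKM without. The count of 7 was not repeated under other settings. ALDOC, the brain form of aldolase, was at 3.28 and 3.27 FPKM in the DOX libraries, against 10.4 and 7.58 FPKM in the noDOX libraries, a log2 difference of -1.21 (SE 0.21; limma, adjusted p = 0.404). ENO2, the neuronal enolase, was at 34.4 and 35.6 FPKM with doxycycline and at 44.0 and 75.5 FPKM without, and PFKM, the muscle phosphofructokinase, which shares exon bases with SENP1, at 22.1 and 20.4 FPKM with doxycycline and at 26.1 and 32.3 FPKM without. Neither passed (limma, adjusted p = 0.911 and 0.937).

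Hexokinases and hexose transporters had a median log2 difference of 0.01 over 9 tested genes. SLC2A1, the glucose transporter of most cells, was at 26.7 and 27.4 FPKM in the DOX libraries, against 21.4 and 22.7 FPKM in the noDOX libraries (limma, adjusted p = 0.990). The transporter gene SLC2A13, which shares exon bases with C12orf40, was at 4.56 and 2.01 FPKM with doxycycline and at 1.40 and 2.76 FPKM without, and SLC2A6 at 4.69 and 7.92 FPKM with doxycycline and at 7.86 and 7.25 FPKM without, both with overlapping groups. Genes of gluconeogenesis and its shuttles split 9 higher to 8 lower over 17 tested. In that list BRP44L, a subunit of the mitochondrial pyruvate carrier, was at 4.06 and 5.06 FPKM with doxycycline and at 3.88 and 1.82 FPKM without. GPD2, the mitochondrial glycerol phosphate dehydrogenase, was at 11.7 and 10.4 FPKM with doxycycline and at 8.90 and 9.83 FPKM without. LDHD, the D-lactate dehydrogenase gene, was at 3.42 and 2.39 FPKM with doxycycline and at 1.92 and 2.44 FPKM without. These 3 had limma adjusted p of 0.971 to 0.999.

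Glycogen and galactose genes had a median log2 difference of 0.03 over 23 tested, with 5 (21.7%) whose DOX values lay above the noDOX values and 0 the other way, beside 14.7% and 17.3% of all tested genes. PHKB, a subunit of phosphorylase kinase, was at 15.6 and 10.1 FPKM in the DOX libraries, against 6.96 and 8.61 FPKM in the noDOX libraries. GALM, which converts galactose between its ring forms, was at 26.9 and 27.96 FPKM with doxycycline and at 23.3 and 19.1 FPKM without, and GSK3B, a kinase that inhibits glycogen synthase, at 7.45 and 5.59 FPKM with doxycycline and at 4.29 and 5.36 FPKM without. None of these 3 passed (limma, adjusted p = 0.858 to 0.986).

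Among the regulators of hepatic sugar genes (24 tested, median 0.11), HNF4A, a nuclear receptor of liver and gut, was at 32.6 and 29.4 FPKM in the DOX libraries, against 17.9 and 14.7 FPKM in the noDOX libraries, a log2 difference of 0.90 (SE 0.22; limma, adjusted p = 0.566). CEBPB, a factor that activates PCK1 in liver, was at 18.3 and 46.2 FPKM with doxycycline and at 119 and 117 FPKM without, a log2 difference of -1.98 (SE 0.49; limma, adjusted p = 0.566). IRS1, an adaptor of the insulin receptor, was at 5.71 and 6.15 FPKM with doxycycline and at 9.29 and 12.8 FPKM without (limma, adjusted p = 0.630). None of these 3 genes passed the threshold. Their groups did not overlap, but they were named for the smallest p of the list, which favours such genes. Over the list, the DOX values lay above the noDOX values in 4 of 24 (16.7%) and below in 6 (25%). The shares over all tested genes were 14.7% and 17.3%.

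**Figure D2:**
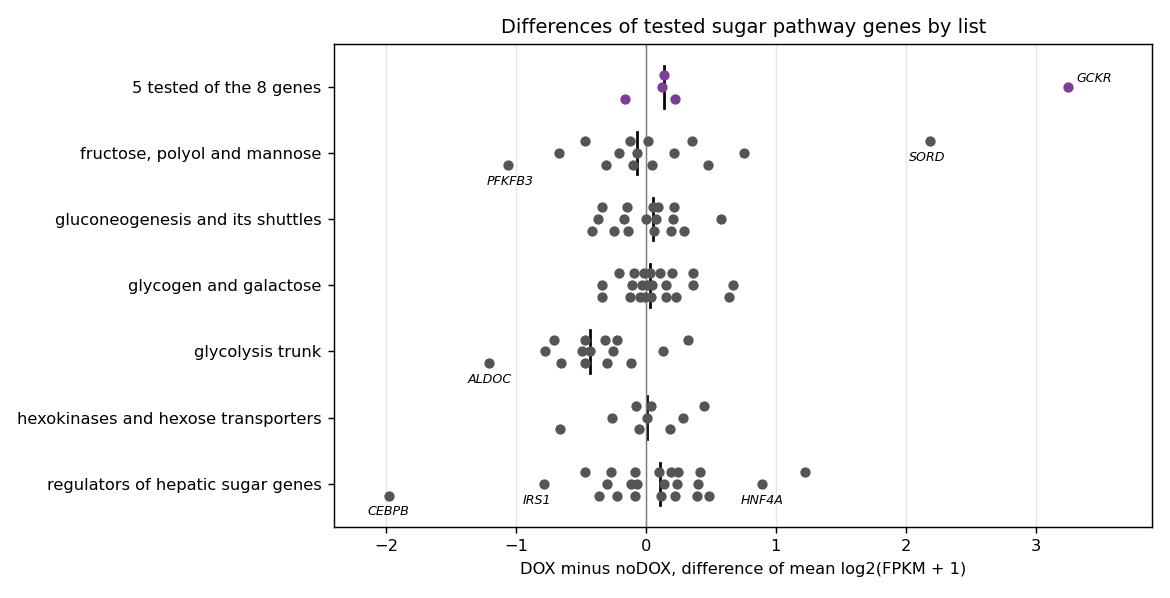
Each point is a tested gene, placed by its DOX minus noDOX difference of mean log2(FPKM + 1); rows are the 5 tested genes of the set of 8 and the 6 lists, and black bars are medians. GCKR lies at 3.25 and SORD at 2.19, CEBPB at -1.98, and the glycolysis trunk is centred on -0.43.

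The neighbours of GCKR on the chromosome differed among themselves. In the RefSeq gene order FNDC4 and then IFT172 lie on the upstream side of GCKR and C2orf16 (SPATA31H1 in RefSeq) and then ZNF512 on the downstream side. FNDC4, which encodes a fibronectin domain protein and is read in the opposite direction from GCKR, was at 11.2 and 15.1 FPKM in the DOX libraries, against 4.94 and 4.78 FPKM in the noDOX libraries. Its mean was 2.71 times as high and its log2 difference 1.26 (SE 0.21; limma, adjusted p = 0.403), and its DOX libraries stood in the opposite order from those of GCKR. IFT172, a gene of intraflagellar transport, was at 3.16 and 3.99 FPKM with doxycycline and at 4.37 and 3.71 FPKM without, and it shares exon bases with KRTCAP3 on the other strand. C2orf16 was at 0.655 and 0.285 FPKM with doxycycline and at 0.233 and 0.386 FPKM without. ZNF512, a zinc finger gene, was at 12.4 and 10.5 FPKM with doxycycline and at 15.6 and 14.1 FPKM without, a log2 difference of -0.35 (SE 0.19; limma, adjusted p = 0.963). No exon of another gene overlaps those of GCKR in GENCODE release 29.

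The genes most like GCKR in pattern were found by the Euclidean distance between log2(FPKM + 1) values centred on each gene's mean over the 4 libraries. The nearest 5 of the tested genes outside the small RNA classes were CD36, F10, LOC100505633, CNTFR and TAC3, at distances of 0.366 to 0.640. CD36, a fatty acid receptor, was at 12.2 and 7.32 FPKM in the DOX libraries, against 0.0350 and 0.0912 FPKM in the noDOX libraries. F10, coagulation factor X of liver, was at 19.5 and 9.57 FPKM with doxycycline and at 0.456 and 0.344 FPKM without. All 5 were higher in DOX library 1 than in DOX library 2, as GCKR was, but this order is among the values that the pick used. All 5 had lower noDOX levels than GCKR. CD36, F10, CNTFR and TAC3 were under 1 FPKM in both noDOX libraries and reached the mean of 1 FPKM only through the DOX libraries. Of the other 7 genes the 4 that were tested lay at distances of 3.05 (G6PC3) to 3.42 (SLC37A4). Likeness over 4 libraries in 2 groups rests mainly on the group difference, and these genes were picked by it. Of the 9 promoter windows of the 4 of these genes in the RefSeq table, 4 held a GATA word, beside 22.3% of all windows. CD36 has 6 of the 9 windows, and 2 of the 4 with a GATA word are CD36 windows that overlap and share a match. Since the genes were picked by their values in this contrast, nothing is read from this count.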

How the data were processed

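The 4 libraries, 2 DOX and 2 noDOX, hold polyadenylated RNA of A549 cells. The authors deposited 1 table of FPKM per gene, made from reads placed on hg19. The submitters' processing notes name Cufflinks 2.2.1, Cuffdiff, TopHat2 2.0.10 and Bowtie, and the gene annotation, the strand setting and any scaling across libraries are not stated there. No label says whether replicates came from separate cultures, so p-values measure only the spread between these 4 samples, and that spread may be technical.

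All genes whose mean reached 1 FPKM were tested on log2(FPKM + 1) with limma 3.58.1 in R 4.3.3 (mean-variance trend, 2 residual degrees of freedom, two-sided, Benjamini-Hochberg at 0.05 over all tested genes), after a check on simulated data. An exact permutation test of 2 against 2 libraries cannot go below p = 0.333. The genes, the lists and the tests were chosen with earlier results of these data known. Named were the 8 genes and their isoenzymes, the 3 smallest p of each list, the nearest 5 genes in pattern and the neighbours of GCKR; the genes sharing exons were added after the values were seen, and some genes under that rule are not reported here.

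What 1 fragment is worth was read from the commonest ratio of low values between libraries. Of 2605 genes under 0.5 FPKM and above 0 in every library, 81.0% came out as whole multiples in all 4 within 0.02, trying multiples up to 60. Any common multiple of the fragment numbers given would have the same ratio. Promoters and gene order came from RefSeq on GRCh38.p14, and exon overlaps from GENCODE release 29, matched by symbol. DAK, PC, PHKB, PFKM, SLC2A13, HK3, IFT172 and TAC3 also share exon bases with another gene of the table, which leaves their values uncertain. Other settings tried were the pseudocount, the low-value filter, the scaling, leaving out small RNA genes, robust moderation, a replicate block and each library left out.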

Additional observations from a re-analysis of the deposited data

How the results depend on the processing

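The log2 difference of GCKR was 3.08 to 3.42 with 1 library left out, 3.30 with upper quartile scaling and 3.37 without small RNA genes, and it moved to 3.57 with a pseudocount of 0.1. The signs of KHK and PCK2 changed with the library left out, from -0.07 to 0.32 for KHK and from -0.51 to 0.78 for PCK2, while G6PC3 kept higher and SLC37A4 lower DOX values in every alternative (0.12 to 0.36 and -0.30 to -0.02). No listed sugar gene outside the 8 passed in any of the 11 alternatives (limma, 0 higher and 0 lower), and SLC2A6 ran from -0.59 to 0.06 with 1 library left out, its sign turning (0.0615) without DOX library 1. Over the whole table, calls of higher and lower genes numbered 3 and 8. They were 5 and 11 with a pseudocount of 0.1, 0 and 1 without a filter, 1 and 0 without small RNA genes, 6 and 9 with robust moderation and 30 and 35 with a replicate block, and 7 to 34 and 23 to 54 with 1 library left out, where the lone library of a group is assumed to vary like the others. The cause was not tested. The titles give both groups the same replicate numbers, but no label says that a number marks a shared culture or day, and across genes the deviations of same-numbered libraries had a correlation of -0.352. A block on the crossed pairing, chosen after seeing the data, gave 2 and 5 calls. Depth limits PCK1, G6PC and FBP1, whose values may rest on a few fragments.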

Other observations

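Other listed genes, named after their values were seen, also had libraries that did not overlap between groups. CREB3L3, a transcription factor of liver and gut, was at 1.07 and 3.75 FPKM in the DOX libraries, against 0.377 and 0.308 FPKM in the noDOX libraries. It reached the mean of 1 FPKM only through the DOX libraries, so its own test result is not given. The list counts above do include it. It is among the 24 tested regulators and the 15 listed genes whose DOX values lay above the noDOX values. GYS2, the liver glycogen synthase, was at 0.00818 and 0.0249 FPKM with doxycycline and at 0.162 and 0.0940 FPKM without, which stood as 1 and 2 to 18 and 12 fragments. It was too low to be tested. GYS2 shares exon bases with C12orf39 on the other strand, at 0.0633 and 0.385 FPKM in the DOX libraries and at 3.49 and 3.63 FPKM in the noDOX libraries. Without a strand setting their reads cannot be told apart, and the part of C12orf39 in the GYS2 values was not tested.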
